A study of Thermothelomyces thermophilus ATCC 42464 with 4 samples.

Results

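The transcripts of 4 genes for protein translocation into the endoplasmic reticulum (ER) were examined in the thermophilic fungus *Myceliophthora thermophila*. The genes were taken by identifier, though with earlier results of these data known, as 4 of the 8716 genes in the deposited table. A pair of them, *Mycth_2314691* and *Mycth_2073127*, encode *sec61* translocon subunits. The gene *sec62* is *Mycth_2310016*, and *sec63* is *Mycth_2303597*. The study names these genes among its own results on a deletion of *Mttrc-1*, so their direction here is not independent evidence. Of the 4 libraries, 2 carry the label ΔMtTrh-1, a deletion of the gene MtTrh-1 in strain ATCC 42464, and 2 are wild type of the same strain (MtWT). All mycelia had 16 h of pregrowth at 45°C with 2% glucose and then 4 h with 2% Avicel, a crystalline cellulose that induces secreted cellulases. In the study's methods the deletion was made with CRISPR-Cas9 and a donor that carried a P*trpC*-*neo* marker between flanks of the gene. Those methods call the RNA-seq replicates independent, but they describe other tools and more replicates than these libraries have. No label ties these libraries to separate cultures or tells how many transformants were used. The p-values may therefore reflect technical spread alone. In bulk mycelium, fewer hyphae that express a gene and less transcript in each of them cannot be told apart.

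Secreted proteins enter the secretory pathway through a channel in the ER membrane, the Sec61 translocon. A signal recognition particle brings ribosomes that are making a secretory protein to this channel. In yeast, Sec62 and Sec63 join the channel to carry proteins across after their synthesis is complete. Sec63 holds a J domain on the lumenal side, through which it recruits the Hsp70 chaperone of the ER (Kar2 in yeast, GRP78 here) to pull the chain inward. In yeast and filamentous fungi, genes of this machinery respond to the unfolded protein response (UPR), the pathway that Ire1 and the transcription factor Hac1 run when unfolded proteins gather in the ER.

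The values are FPKM, fragments per kilobase of gene scaled to the mapped fragments of each library, so levels can be compared between genes per length. Total FPKM ran between 725984 and 741923 over the 4 libraries, and the read depth that lies behind the values is unknown. The gene taken as deleted, *Mttrc-1* (*Mycth_90344*), went against the label. It had 215.45 and 223.41 FPKM in the libraries labelled ΔMtTrh-1, against 13.29 and 14.47 FPKM in MtWT. That MtTrh-1 is *Mttrc-1* was read from the title of the data set and was not tested. Every direction below is therefore that of the labels. The strains were compared with limma on log2(FPKM + 1) over the 7525 genes averaging 1 FPKM or more, and a gene was called at a Benjamini-Hochberg adjusted p under 0.05 with a log2 fold change beyond 1 in size. All 4 translocation genes passed the filter on low values, at levels far above it in every library.

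All 4 translocation genes were lower in the libraries labelled ΔMtTrh-1, at 35.1% to 51.7% of the mean MtWT level. *sec62* and the *sec61* subunit gene *Mycth_2314691* were called lower. *Mycth_2073127* and *sec63* had adjusted p-values of 3.3e-07 and 3.8e-07 (limma) but log2 fold changes just short of the fold threshold. Among all genes tested, 4.96% were called lower, against 2 of these 4. With no fold threshold, 31.3% of all genes tested were lower at an adjusted p under 0.05, against 4 of these 4. For each of the 4 genes both libraries labelled ΔMtTrh-1 lay below both MtWT libraries, as they did for 39.0% of all genes tested. The median log2 fold change of the 4 genes was −1.16, beside 0.03 over all genes tested.

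**Figure D1:**
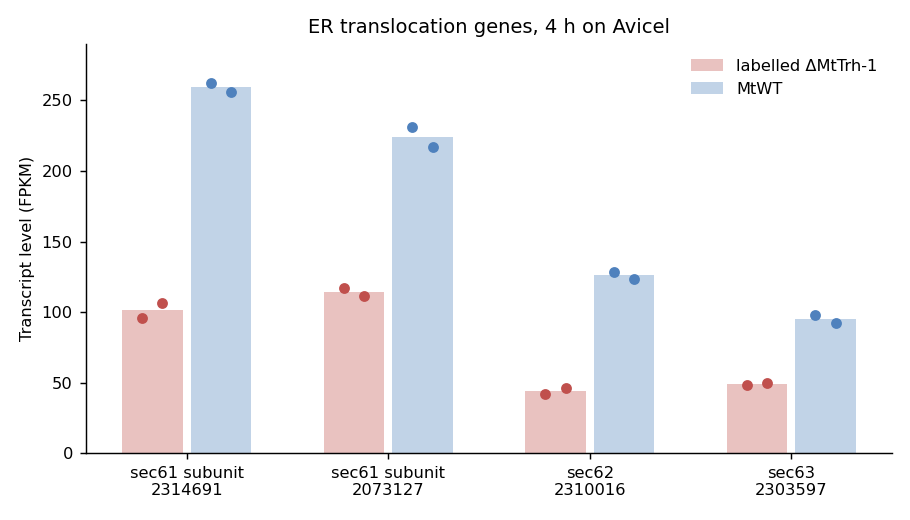
Transcript levels (FPKM) of the 4 translocation genes after 4 h on Avicel. Points are single libraries and bars the mean of 2 libraries, with libraries labelled ΔMtTrh-1 in red on the left of each pair and MtWT in blue on the right. In each gene both red points lie below both blue points, and the gap is narrowest for *sec63*, at 42.9 FPKM.

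The *sec61* subunit gene *Mycth_2314691* had 96.10 and 106.70 FPKM in the libraries labelled ΔMtTrh-1, against 262.04 and 256.32 FPKM in MtWT. It was the most abundant of the 4 transcripts in both MtWT libraries and came second in both libraries labelled ΔMtTrh-1. The mean was 101.4 ± 7.5 FPKM in the libraries labelled ΔMtTrh-1 and 259.2 ± 4.0 FPKM in MtWT (SD, n = 2 each). In limma the log2 fold change came to −1.35, with a standard error of 0.06, a 95% confidence interval of −1.48 to −1.22 and an adjusted p of 6.0e-08. The 2 libraries labelled ΔMtTrh-1 differed from each other by 0.15 on the log2 scale, the widest spread within a strain among the 4 genes.

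The other *sec61* subunit gene, *Mycth_2073127*, is described as the Sec61-beta subunit, a small tail-anchored protein beside the channel. It had 117.29 and 111.21 FPKM in the libraries labelled ΔMtTrh-1, against 231.23 and 217.38 FPKM in MtWT. The limma estimate of the log2 fold change was −0.97, with a standard error of 0.05 and a 95% confidence interval of −1.09 to −0.85. The interval spans the fold threshold of −1, so on which side of it this gene lies is not settled by these libraries. It was past the threshold without replicate 1 of those labelled ΔMtTrh-1, or without MtWT replicate 2, with a log2 fold change of −1.005 and −1.01.

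*sec62* (*Mycth_2310016*), whose product works in translocation after synthesis, had the lowest log2 fold change of the 4 genes. Its level was 41.97 and 46.43 FPKM in the libraries labelled ΔMtTrh-1, against 128.31 and 123.82 FPKM in MtWT. It was the least abundant of the 4 in the libraries labelled ΔMtTrh-1, and in MtWT it was above *sec63*. The log2 fold change in limma was −1.49, with a standard error of 0.06, a 95% confidence interval of −1.63 to −1.36 that overlaps that of *Mycth_2314691*, and an adjusted p of 3.8e-08. Of all genes tested, 2.46% had a lower log2 fold change than *sec62*.

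*sec63* (*Mycth_2303597*), which encodes the J-domain partner of GRP78, had the smallest estimate. Its level was 48.78 and 49.56 FPKM in the libraries labelled ΔMtTrh-1, against 97.86 and 92.42 FPKM in MtWT. The log2 fold change was −0.94 (limma, standard error 0.05), with a 95% confidence interval of −1.06 to −0.82 that spans the fold threshold, and 5.53% of all genes tested had a lower one. When the libraries were instead set to a common median of log2 values, *sec63* and *Mycth_2073127* reached −1.001 and −1.03. All 4 genes were then called lower, beside 5.53% of all genes tested. This setting also moved the median log2 fold change over all genes tested from 0.03 to −0.03.

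**Figure D2:**
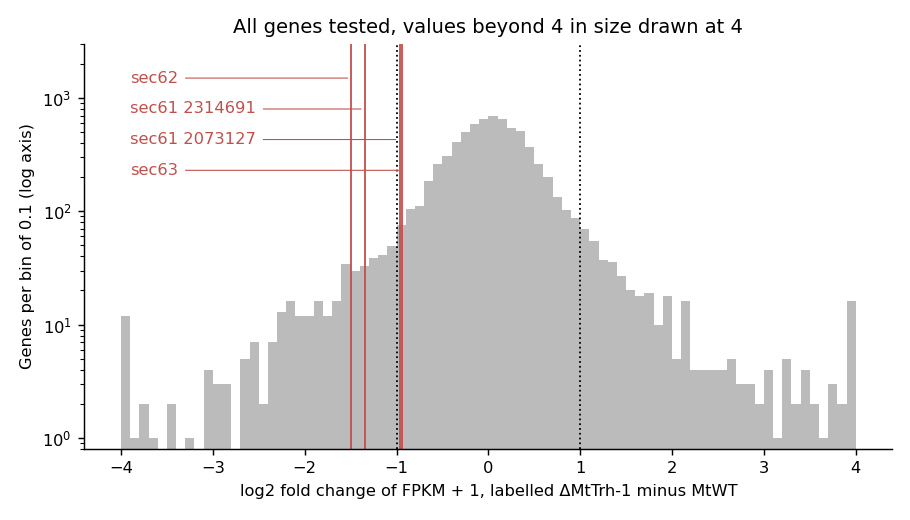
Distribution of the log2 fold change of FPKM + 1 (libraries labelled ΔMtTrh-1 minus MtWT) over 7525 genes, in bins of 0.1 on a log count axis, with values beyond 4 in size drawn at 4. Red lines mark the 4 translocation genes and dotted lines the fold thresholds, and the 4 red lines lie between −1.49 and −0.94, in the lower tail.

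Within the 4 genes, the order of abundance was not the same in the 2 strains. In both libraries labelled ΔMtTrh-1 the order from high to low was *Mycth_2073127*, *Mycth_2314691*, *sec63* and *sec62*. In both MtWT libraries it was *Mycth_2314691*, *Mycth_2073127*, *sec62* and *sec63*. The genes that trade places did not overlap within a strain, but the gaps were narrower in the libraries labelled ΔMtTrh-1. Between the *sec61* subunit genes the nearest libraries were 4.51 FPKM apart in those labelled ΔMtTrh-1 and 25.1 FPKM apart in MtWT. Between *sec62* and *sec63* they were 2.35 FPKM apart in those labelled ΔMtTrh-1 and 25.96 FPKM apart in MtWT.

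Ratios between subunits were then taken within each library, where scaling of the library cancels. The ratio of *Mycth_2314691* to *Mycth_2073127*, the *sec61* subunit genes, was 0.82 and 0.96 in the libraries labelled ΔMtTrh-1, against 1.13 and 1.18 in MtWT. The ratio of *sec62* to *sec63* was 0.86 and 0.94 in the libraries labelled ΔMtTrh-1, against 1.31 and 1.34 in MtWT. The log2 ratio differed by −0.38 (pooled SD 0.12) for the *sec61* pair and by −0.56 (pooled SD 0.06) for *sec62* to *sec63*. For these 2 genes, whose products act as partners in yeast, the FPKM ratio was thus below 1 in the libraries labelled ΔMtTrh-1 and above 1 in MtWT. It is a ratio of transcript values that rest on an unknown annotation, and protein was not measured.

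The pairs that cross between *sec61* and *sec62* or *sec63* differed by amounts that ranged widely. The ratio of *Mycth_2073127* to *sec63*, the pair with the smaller falls, was 2.40 and 2.24 in the libraries labelled ΔMtTrh-1, against 2.36 and 2.35 in MtWT, so the strains overlapped and the log2 ratio differed by −0.02. The ratio of *Mycth_2314691* to *sec62*, the pair with the larger falls, was 2.29 and 2.30 in the libraries labelled ΔMtTrh-1, against 2.04 and 2.07 in MtWT, a difference of 0.16 on the log2 scale. The ratio of *Mycth_2314691* to *sec63* was 1.97 and 2.15 in the libraries labelled ΔMtTrh-1, against 2.68 and 2.77 in MtWT, a log2 difference of −0.40. That of *Mycth_2073127* to *sec62* was 2.79 and 2.40 in the libraries labelled ΔMtTrh-1, against 1.802 and 1.756 in MtWT, a log2 difference of 0.54 (pooled SD 0.11). This is near the size for *sec62* to *sec63*, and without replicate 2 of the libraries labelled ΔMtTrh-1 it was the larger, at 0.65 beside −0.62. In 5 of the 6 pairs the strains did not overlap, a share no higher than over all pairs of the 5177 genes that averaged 10 FPKM or more and were above 0 in every library, where 87.1% did not overlap. With 2 libraries against 2, a two-sided exact permutation test cannot go below p = 0.33, which each of these 5 pairs reached (0.40 when adjusted over the 6 pairs). That floor lies above 0.05 whatever the values, so this test cannot tell whether a ratio differed, and the shifts are given as sizes beside their SD.

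**Figure D3:**
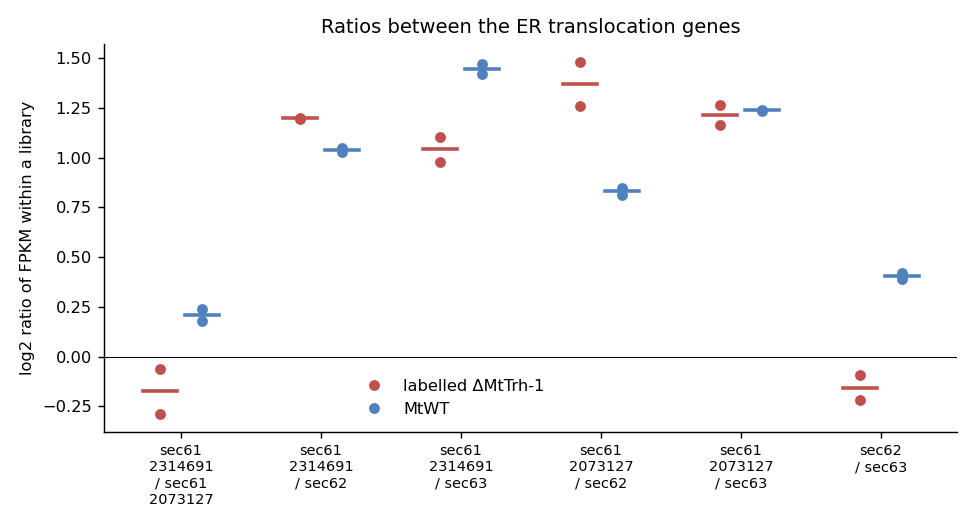
Log2 ratio of FPKM between the translocation genes for the 6 pairs, with 1 point per library and a line at the mean of 2 libraries (red, labelled ΔMtTrh-1, on the left; blue, MtWT, on the right). The red points lie below 0 and the blue points above 0 for the *sec61* pair and for *sec62* to *sec63*, and the strains overlap only for *Mycth_2073127* to *sec63*.

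Together the 4 genes summed to 304 and 314 FPKM in the libraries labelled ΔMtTrh-1, against 719 and 690 FPKM in MtWT. This was 0.042% ± 0.001 of total FPKM in the libraries labelled ΔMtTrh-1 and 0.095% ± 0.002 in MtWT (SD, n = 2 each). Within that sum, *sec62* took 14.3% ± 0.7 in the libraries labelled ΔMtTrh-1 and 17.9% ± 0.1 in MtWT. *Mycth_2073127* took 37.0% ± 2.2 in the libraries labelled ΔMtTrh-1 and 31.8% ± 0.4 in MtWT. All 4 remained well expressed. The level of *sec62* exceeded that of 76.0% of all genes in the libraries labelled ΔMtTrh-1 and 89.98% in MtWT, and that of *Mycth_2314691* exceeded 88.1% in the libraries labelled ΔMtTrh-1 and 94.7% in MtWT.

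Genes that act just before and after the channel did not all follow it. *Mycth_2078150*, described as the SRP54 GTPase of the signal recognition particle, had 344.93 and 344.04 FPKM in the libraries labelled ΔMtTrh-1, against 261.01 and 304.65 FPKM in MtWT. By limma this was a log2 fold change of 0.29, with a standard error of 0.07 and an adjusted p of 0.0051, in the other direction from the 4 translocation genes and well inside the fold threshold, and its 2 MtWT libraries lay far apart. *Mycth_2088816* belongs to the glycosyltransferase family of the catalytic subunit of the oligosaccharyltransferase that glycosylates chains as they leave the channel. It had 35.55 and 38.43 FPKM in the libraries labelled ΔMtTrh-1, against 73.91 and 68.94 FPKM in MtWT. The log2 fold change of −0.93, with a standard error of 0.06 and an adjusted p of 1.2e-06 in limma, was close to that of *sec63*. Both were found by words in product descriptions, which were held for 1118 of the 7525 genes tested, so other genes of these steps were not analysed here.

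The ER chaperone that Sec63 recruits and the UPR regulator were lower as well. *grp78* (*Mycth_2315513*) had a log2 fold change of −1.70, *Mthac-1* (*Mycth_2310995*) −1.52 and *lhs1* (*Mycth_2312968*), an Hsp70-related partner of Kar2 in yeast, −1.19 (limma). Of the 6 UPR and ER folding genes that the study names with an identifier, 6 were called lower, beside 4.96% of all genes tested. Their median was −1.36, and this list too was picked by the study. Genes of this kind that the study names without an identifier, such as *ero-1*, were not analysed here.

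Protein families related to the partners of the channel were counted by description, which does not give their place in the cell. Of 5 tested genes described as DnaJ proteins, the family that shares the J domain of Sec63, none was called in either direction (limma). Their median log2 fold change was −0.03. At p under 0.05, adjusted or not, 2 were lower and 2 were higher. Over all genes tested, 10.3% were called in either direction, and at an adjusted p under 0.05 31.3% were lower and 34.2% higher, so counts this small do not set these families apart from other genes. *Mycth_112086*, with a DnaJ cysteine-rich region, had −0.65, whereas the DnaJ gene *Mycth_2088290* had 0.37. Of 3 tested genes described as Hsp70 proteins none was called (limma), 1 was lower and 1 was higher at p under 0.05, adjusted or not, and *Mycth_2086391* had 0.55. Protein import into mitochondria does not use the Sec61 channel. Of 6 genes described for it or for inner membrane insertion, none was called. Their log2 fold changes lay between −0.05 and 0.20, and at p under 0.05 in limma, adjusted or not, 0 were lower and 2 were higher, beside the same shares of 31.3% and 34.2% over all genes.

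**Figure D4:**
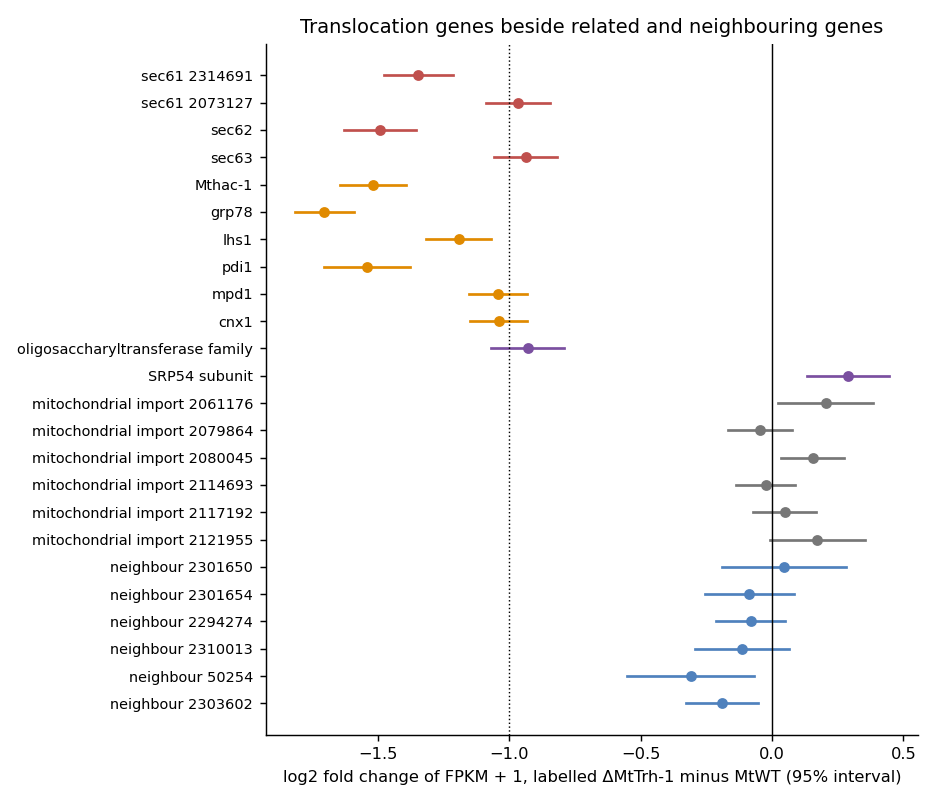
Log2 fold change of FPKM + 1 with its 95% confidence interval from limma (libraries labelled ΔMtTrh-1 minus MtWT). Colours mark the translocation genes (red), the UPR and ER folding genes (orange), and the oligosaccharyltransferase family and SRP54 genes (purple). Grey marks genes described for mitochondrial import or inner membrane insertion, and blue the tested genes that flank a translocation gene. Intervals of the red genes end between −1.63 and −0.82, and the points of the grey and blue genes lie between −0.31 and 0.20.

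The genes on either side of each translocation gene on the chromosome, as ordered in the RefSeq annotation of assembly ASM22609v1, had log2 fold changes nearer to 0. Of 8 such neighbours, 6 passed the filter, with log2 fold changes between −0.31 and 0.05. None was called, where 10.3% of all genes tested were called in either direction, so so small a count does not set them apart. Both neighbours of *sec63*, and no other neighbour, were lower at p under 0.05 in limma, adjusted or not, and 2 of 6 is near the 31.3% of all genes tested. *Mycth_50254* had 10.18 and 7.99 FPKM in the libraries labelled ΔMtTrh-1, against 11.75 and 11.11 FPKM in MtWT. *Mycth_2303602* had 27.55 and 28.61 FPKM in the libraries labelled ΔMtTrh-1, against 33.00 and 31.41 FPKM in MtWT. For *Mycth_2314691*, the gene before it, *Mycth_2301650*, had a log2 fold change of 0.05 and the gene after it, *Mycth_2301654*, −0.09.

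The genes most like the mean of the 4 translocation genes were found by the Euclidean distance between centred log2(FPKM + 1) values over the 4 libraries, among the other genes averaging 10 FPKM or more. They were *Mycth_2310298* (distance 0.013), *Mycth_2301956* (0.029), *Mycth_2299575* (0.055), *Mycth_2298860* (0.059) and *Mycth_2299996* (0.060). The nearest, *Mycth_2310298*, had 49.40 and 51.31 FPKM in the libraries labelled ΔMtTrh-1, against 118.19 and 114.30 FPKM in MtWT. No product description was held for any of the 5. The translocation genes themselves lay farther from their own mean, between 0.17 for *Mycth_2314691* and 0.31 for *sec62*. Of 5176 other genes, 71 were nearer to that mean than *Mycth_2314691*, and 162 were nearer than *sec62*.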

How the data were processed

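RNA of 4 mycelial samples was sequenced, 2 labelled ΔMtTrh-1 and 2 MtWT. The authors deposited 1 FPKM value per gene and library. HISAT and Bowtie2 are listed in the processing notes of the submitters. Which quantifier, genome build and annotation were used is not given in the sources used here. RNA-seq as the paper's methods describe it, with other tools and more replicates, was not analysed here. FPKM keep no usable depth at 2 decimals, so no counting interval is given.

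Of 8716 genes, the 7525 averaging 1 FPKM or more were compared on log2(FPKM + 1), which understates the change of low genes, with limma version 3.58.1 (R version 4.3.3), an intensity trend, no covariate and Benjamini-Hochberg adjustment over all genes tested. Ratios between genes were taken on FPKM without a pseudocount. Genes named are the 4 translocation genes, *Mttrc-1*, lists by identifier or description, chromosomal neighbours and the 5 genes nearest in pattern. From lists by description, up to 3 examples were named, those with the largest absolute log2 fold change among genes averaging 10 FPKM or more. The ribosomal gene *Mycth_2096341* was named for its description instead. The members and lists were chosen with earlier results of these data known. Descriptions came from the part of the study's gene table at hand. Of the identifiers, 8681 were found in the RefSeq table, which served only for gene order. Alternatives covered the pseudocount, filter, scaling, trend, thresholds, a replicate block and each library left out. Plots were drawn with matplotlib 3.10.9.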

Additional observations from a re-analysis of the deposited data

How the results depend on the processing

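All 4 translocation genes were lower in the libraries labelled ΔMtTrh-1 under each of 13 alternatives, and *Mycth_2314691* and *sec62* were called under all 13. *Mycth_2073127* and *sec63* were called at a common median of log2 values (−1.03 and −1.001) and with the adjusted p alone (−0.97 and −0.94). Then 4 translocation genes were called, while over all genes the common median gave 416 lower. The adjusted p alone gave 2356 lower and 2570 higher over all genes. A pseudocount of 5 FPKM gave 240 lower and 253 higher. The log2 ratio of *Mycth_2314691* to *sec62* differed between strains by 0.16 on FPKM and by 0.15 on log2(FPKM + 1). With each library left out in turn, the lone library of its strain being assumed to vary like the other strain, *Mycth_2073127* ranged between −1.01 and −0.92. The replicate block gave 373 genes lower and 400 higher and changed no call of a translocation gene. Same-numbered libraries did not deviate together (r = −0.02 across genes), and the labels do not say that numbers mark pairs. Depth and variation between cultures could not be assessed.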

Other observations

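Other lists found by description were counted as well. Of 22 tested genes described as ribosomal proteins, none was called, with a median log2 fold change of −0.17. At p under 0.05 in limma, adjusted or not, 12 of them were lower and 2 were higher, while over all genes tested the shares past that adjusted threshold were 31.3% for lower and 34.2% for higher. The list mixes abundant genes with less abundant ones, among them *Mycth_2096341*, described as bacterial-type, at −0.08, so its median does not stand for 1 kind of ribosome. The ribosomal gene *Mycth_2064349* had 1050 and 1117 FPKM in the libraries labelled ΔMtTrh-1, against 2148 and 1919 FPKM in MtWT, a log2 fold change of −0.91. Of 3 tested genes described for vesicle coats or SNARE proteins, which act after the ER, none was called. At p under 0.05 in limma, adjusted or not, 1 was lower and 1 was higher, beside the same shares of 31.3% and 34.2%. Over all genes tested, 10.3% were called in either direction, so counts this small do not set these 3 genes apart from other genes. *Mycth_2088125*, described as a clathrin adaptor or coatomer subunit, had −0.68, and the v-SNARE gene *Mycth_2051705* had 0.36.

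The 11 cellulose degradation genes that the study names had a median log2 fold change of −1.81, beside −1.16 for the 4 translocation genes. This list too was picked by the study, from its own results on a deletion of *Mttrc-1*, so its direction here is not independent evidence. The difference between these medians was not tested.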
